A study of Mus musculus with 12 samples.

Results

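Genes of the Wnt signalling system were examined by RNA-seq in chondrocytes, the cells of cartilage, taken from the ribs of mice. The set comprised 49 of the 17922 genes in the table and was picked by gene symbol, with earlier results of these data known. It held 17 Wnt ligands, 10 Frizzled receptors, the 2 coreceptors Lrp5 and Lrp6, 11 secreted antagonists, 7 cytoplasmic components and the 2 nuclear factors Lef1 and Tcf7. Samples fell into 4 groups of 3. The LDH knockout carried Col2-Cre, 2 floxed Ldha alleles and 1 intact Ldhb allele, was taken at postnatal day 5, and addressed reduced glycolysis. The Acly knockout carried Col2-Cre and 2 floxed alleles of Acly, which encodes ATP citrate lyase, was taken at embryonic day E18.5, and addressed reduced cytoplasmic acetyl-CoA. Each knockout had littermate controls whose own alleles, Cre included, were not given, and every group had a mixed, mainly C57BL/6 background. Col2-Cre recombines in cartilage cells, and other cells in a culture may have kept the targeted gene, which was not measured. All cells had spent a night in culture after collagenase digestion. The labels do not say that replicates came from separate animals, so p-values measure the spread between these samples, which may be partly technical.

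Wnt proteins are secreted lipid-modified ligands that bind Frizzled receptors together with Lrp5 or Lrp6. In the canonical branch this stops the Axin, Apc and kinase complex from degrading beta-catenin (Ctnnb1), which then acts with the DNA-binding factors Lef1 and Tcf7, while ligands such as Wnt5a act mainly through branches that do not need beta-catenin. In cartilage, canonical signalling is known to favour bone-forming over cartilage-forming fate, and Wnt5a is known for its part in chondrocyte differentiation and limb outgrowth. Secreted antagonists act by binding Wnts (the Sfrp proteins, Frzb, Wif1), by binding the coreceptors (Dkk1, Dkk2, Sost) or by removing the lipid from the ligand (Notum).

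Depth was even, with 26362407 to 28154143 expected counts per sample. The Col2-Cre deletions were visible in the targeted RNAs: Ldha stood at 86.7 ± 6.64 counts per 1000000 counts (CPM; mean ± SD, n = 3) in the LDH knockout against 845 ± 51.4 in its controls, and Acly at 74.2 ± 18.9 CPM against 197 ± 4.81. Neither comparison overlapped, and both reached the smallest p an exact two-sided permutation test of 3 against 3 samples can give, 0.1. Ldhb was at 15.1 CPM against 11.7 in the controls (edgeR quasi-likelihood test, adjusted p = 0.115). Cartilage markers were high in all cultures: the 12 chondrocyte markers examined, Col2a1 and Acan among them, summed to between 9763 and 29530 CPM in every sample, although Matn1 stayed below 1 CPM on average in both LDH groups. This sum was higher in both knockouts than in their controls, at 19615 to 29530 against 10735 to 12460 CPM for LDH and 16193 to 18761 against 9763 to 10786 CPM for Acly. Osteoblast markers lay the other way, at 2574 to 4701 against 6525 to 8841 CPM for LDH and 5964 to 7511 against 7974 to 10992 CPM for Acly. For LDH 3 of 8 osteoblast markers were called, all lower, whereas for Acly 0 of 9 were called and none of the 9 was separated between groups by itself. Adipocyte markers were higher in the LDH knockouts, at 81.8 to 134 against 40.7 to 57.4 CPM, with 5 of 8 called higher, and overlapped between groups in the Acly set, with 0 of 8 called. In bulk RNA, fewer cells of a type and less RNA per cell cannot be told apart. A pair of libraries was set apart, each on its own measure, and values without them are given below. Acly knockout 2 had perichondrium and fibroblast markers at 1398 CPM, against 2614 to 3219 CPM in the other 5 samples of its set. LDH knockout 3 lay inside the control range, with both other knockouts beyond it on 1 side, for 15.9% of all genes. This share was 5.03% for LDH knockout 1 and 4.33% for LDH knockout 2. In the Acly set it was 15.3% for knockout 1, 5.03% for knockout 2 and 6.72% for knockout 3. Acly knockout 1 was thus close to LDH knockout 3 on this measure but was not set apart.

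The proximal promoters of 4 genes named in the results below are shown first, and no result below rests on these sequences. Amer2 is the member that fell in the Acly knockout, Frzb is the antagonist, of the 8 tested, with a higher value in every Acly knockout than in every control, and Axin2 and Nkd1 are textbook transcriptional targets of the canonical branch that stood higher together in the Acly controls than in the LDH controls. Each sequence is the 250 bases before the gene's start in RefSeq (build GRCm38.p6), 5′ to 3′ on the gene's strand. Capitals mark the motif CTTTGA or its reverse complement TCAAAG, a form of the core letters bound by the Lef1 and Tcf7 family. Other forms, such as CTTTGT, were not searched for.
Amer2, chr14:60377442-60377691, plus strand: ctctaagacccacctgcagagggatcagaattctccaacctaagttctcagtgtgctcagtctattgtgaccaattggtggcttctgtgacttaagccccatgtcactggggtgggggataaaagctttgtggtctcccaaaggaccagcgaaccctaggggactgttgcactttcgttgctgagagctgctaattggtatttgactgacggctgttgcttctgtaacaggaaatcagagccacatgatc
Frzb, chr2:80447397-80447646, minus strand: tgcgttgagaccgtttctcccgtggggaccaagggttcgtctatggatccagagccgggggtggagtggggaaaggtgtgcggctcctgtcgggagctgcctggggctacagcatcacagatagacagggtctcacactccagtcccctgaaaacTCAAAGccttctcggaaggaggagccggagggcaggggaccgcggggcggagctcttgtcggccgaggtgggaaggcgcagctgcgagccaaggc
Axin2, chr11:108920099-108920348, plus strand: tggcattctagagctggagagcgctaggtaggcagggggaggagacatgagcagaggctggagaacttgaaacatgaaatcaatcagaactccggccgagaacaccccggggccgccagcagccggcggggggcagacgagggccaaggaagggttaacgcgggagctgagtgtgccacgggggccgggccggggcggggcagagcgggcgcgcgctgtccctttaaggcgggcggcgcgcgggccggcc
Nkd1, chr8:88527383-88527632, plus strand: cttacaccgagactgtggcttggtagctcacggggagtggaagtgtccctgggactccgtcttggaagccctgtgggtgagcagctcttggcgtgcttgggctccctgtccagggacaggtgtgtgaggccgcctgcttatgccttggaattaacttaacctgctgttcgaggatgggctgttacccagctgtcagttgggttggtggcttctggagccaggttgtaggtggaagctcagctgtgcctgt
Among these 4 windows, only that of Frzb held this motif, 95 bases before the start, while that of Amer2 held the unsearched form CTTTGT. The windows searched were a selection from RefSeq that left some genes out. In this selection 17 members, Wnt8a, Fzd8 and Apc among them, had no window, which does not mean that RefSeq lacks a start for them. The selection matched 32 of the 49 members, with 40 starts between them, and the shares that follow hold for it only. Of these 40 windows, 6 (15.0%) held the motif on either strand, against 13.83% of the 32851 mouse windows searched. The other 5 belonged to Wnt11, Wnt5b, Fzd1, Lef1 and Dkk1. A match is a run of letters and not a shown binding site, and the windows without one say nothing about other forms of the core or more distant sequence.

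The levels of the members within each role were first set side by side, using deposited TPM (transcripts per 1000000 transcripts), which takes gene length into account. Ctnnb1 was the most abundant member, with a mean of 237 TPM over all 12 samples and a range from 174 to 301. Averaged over the same samples, the scaffold Axin1 was at 48.8 TPM, Lrp5 at 45.3 TPM and the receptor Fzd9 at 34.5 TPM, but their order differed between groups. Axin1 was above Lrp5 in the LDH controls (53.4 ± 2.66 against 34.1 ± 2.49 TPM) and below it in the Acly controls (44.7 ± 0.735 against 59.3 ± 2.51 TPM). Fzd9 was at 12.7 ± 1.30 TPM in the LDH controls, under Fzd7 and Lrp6, at 44.0 ± 4.88 TPM in the Acly controls, and at 67.6 ± 3.91 TPM in the Acly knockouts, where its mean exceeded those of Axin1 and Lrp5. Of the ligands, Wnt11 at 15.7 TPM, Wnt5a at 11.7 TPM and Wnt7b at 6.70 TPM carried most of the RNA. In the LDH controls Wnt11 made up 41.6 ± 3.79% of summed ligand TPM and Wnt7b 26.3 ± 1.71%. In the Acly controls Wnt5a led with 37.0 ± 3.57%, Wnt11 followed with 31.0 ± 3.57% and an overlapping range, and Wnt7b had 11.0 ± 1.75%. Fzd7 was the leading receptor in the LDH controls (27.6 ± 3.61% of summed Frizzled TPM) and Fzd9 in the Acly controls (23.0 ± 2.20%). All 10 Frizzled receptors and both coreceptors were detected in every sample. The antagonist Frzb supplied 48.6 ± 8.30% of antagonist TPM in the LDH controls but 9.47 ± 0.549% in the Acly controls, where Sfrp2 supplied 26.0 ± 5.52%. At the other end, 11 members were too low to test in any comparison: Wnt1, Wnt2, Wnt2b, Wnt3, Wnt6, Wnt7a, Wnt8a, Wnt8b, Sost, Sfrp5 and Dkk1 never exceeded 15 counts in a sample. Wnt16 and Dkk2 did not pass the filter in the LDH set.

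**Figure D1:**
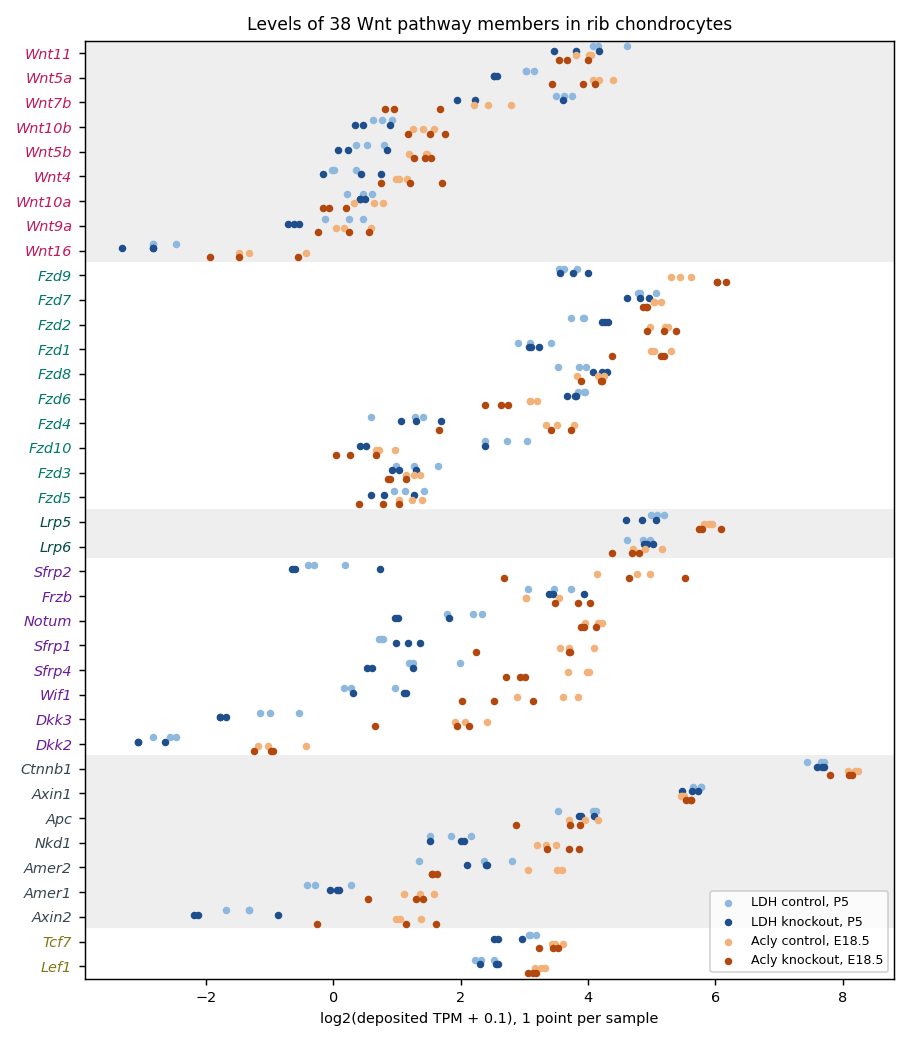
Level of each of the 38 members tested in the comparison of controls, as log2(TPM + 0.1) on the horizontal axis, 1 point per sample and colours for the 4 groups; gene names and bands are grouped from top to bottom as ligands, receptors, coreceptors, secreted antagonists, cytoplasmic and nuclear members. Ctnnb1 stands highest with 237 TPM on average, and several antagonists split into a low LDH set and a high Acly set.

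Loss of LDH was accompanied by a lower level of Wnt5a, and no other member passed the threshold. Wnt5a was at 13.9, 14.3 and 13.6 CPM in the knockouts and at 20.9, 18.9 and 20.3 CPM in the controls. The knockouts varied by less than 1 CPM and all lay below the lowest control, with a fall to 69.6% of the control mean (log2 fold change -0.52, SE 0.10, edgeR adjusted p = 0.0282). Of the 36 members tested, 1 was thus called at an adjusted p under 0.05, while 2.49% of all genes tested were. At an unadjusted p under 0.05, 3 members were higher and 8 lower in the knockout, together 11 of 36, against 19.6% of all genes. For 7 members all knockouts lay on 1 side of all controls (3 higher and 4 lower), against 24.3% of all genes. The median log2 fold change of the members was -0.08, and that of all genes 0.0051. The Wnt5a call was lost in 9 of 16 alternatives, among them the removal of any library except LDH knockout 3, with the fold change between -0.57 and -0.41 and the adjusted p between 0.00142 and 0.197. The sum of Y-linked transcripts was at most 0.0366 CPM in the LDH knockouts and 0.601, 91.9 and 100 CPM in the controls, and with it as a covariate the adjusted p of Wnt5a was 0.197. Among the controls only LDH control 3 was low, so this covariate nearly coincided with genotype and could not be separated from it. Chondrocyte, osteoblast and adipocyte markers also moved with this genotype (8 of 11 called higher, 3 of 8 lower and 5 of 8 higher, with median log2 fold changes of 1.02, -0.93 and 3.56), and their part in the fall of Wnt5a was not tested.

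The other ligands with an unadjusted p under 0.05 in the LDH comparison were lower too. Wnt9a, a canonical ligand active at forming joints, was at 0.908, 1.08 and 0.951 CPM in the knockouts and 2.21, 1.34 and 2.03 CPM in the controls. These groups did not overlap, but the call failed after adjustment (log2 fold change -0.92, SE 0.28, edgeR adjusted p = 0.111). Wnt7b, a ligand known to promote bone formation, was at 8.17 and 6.86 CPM in knockouts 1 and 2 but at 21.1 CPM in knockout 3, against 19.4, 20.7 and 24.9 CPM in the controls. Knockout 3 was thus inside the control range (log2 fold change -0.85, SE 0.35, edgeR adjusted p = 0.218). Wnt11, with an unadjusted p over 0.05, stood at 24.3, 15.9 and 19.3 CPM against 24.2, 21.3 and 31.4 CPM, with overlap (edgeR adjusted p = 0.281). Summed ligand TPM was 32.8 ± 6.62 in the knockouts and 46.7 ± 5.51 in the controls, ranging from 25.8 to 38.9 and from 43.2 to 53.1.

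Among receptors, Fzd2 and Fzd8 had the lowest p. Fzd2 was at 35.8, 38.1 and 37.4 CPM in the LDH knockouts and 28.5, 24.0 and 30.2 CPM in the controls, without overlap. Its log2 fold change was 0.43 (SE 0.10), just outside the threshold (edgeR adjusted p = 0.0536). Fzd8 was at 33.1, 30.7 and 34.0 CPM against 24.8, 19.2 and 28.5 CPM, again without overlap (log2 fold change 0.43, SE 0.13, edgeR adjusted p = 0.115). With DESeq2, which called 6.80% of all genes, both were called, at adjusted p = 0.0104 for Fzd2 and 0.0485 for Fzd8. Without LDH knockout 3 the edgeR adjusted p was 0.0534 for Fzd2 and 0.144 for Fzd8. Fzd10, chosen after its values were seen, followed the pattern of Wnt7b, with 2.11 and 2.01 CPM in knockouts 1 and 2, 7.94 CPM in knockout 3, and 9.97, 7.66 and 13.3 CPM in the controls. It was not called with all libraries (log2 fold change -1.35, SE 0.46, edgeR adjusted p = 0.148). The remaining 7 receptors and the coreceptors Lrp5 and Lrp6 had unadjusted p over 0.05, with log2 fold changes from -0.25 to 0.28.

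The secreted antagonists did not share a direction in the LDH knockout, with 4 of the 7 tested above 0 and 3 below. Sfrp1, which binds Wnts, was at 4.36, 5.93 and 4.90 CPM against 3.48, 3.53 and 3.94 CPM, without overlap (log2 fold change 0.47, SE 0.17, edgeR adjusted p = 0.177, or 0.165 without LDH knockout 3). Dkk3, a divergent member of the Dickkopf family, was at 0.363, 0.335 and 0.329 CPM against 1.02, 0.671 and 0.638 CPM (edgeR adjusted p = 0.119). Those Dkk3 levels rest on only 9 or 10 counts in the knockouts and 17 to 29 in the controls. Notum was at 2.03, 2.05 and 3.69 CPM against 4.67, 3.43 and 5.59 CPM, with knockout 3 again inside the control range (edgeR adjusted p = 0.151). Sfrp4 was at 2.07, 1.27 and 1.28 CPM against 3.44, 1.98 and 2.06 CPM, with overlap (edgeR adjusted p = 0.246). Sfrp4, Dkk3 and Notum were chosen after their values were seen. The 7 cytoplasmic members, from Ctnnb1 to Axin2, all had unadjusted p over 0.05 and log2 fold changes between -0.20 and 0.20. The transcription factor Tcf7 was at 7.99, 8.65 and 10.7 CPM against 11.4, 12.1 and 12.3 CPM, without overlap (log2 fold change -0.39, SE 0.14, edgeR adjusted p = 0.163), while its relative Lef1 overlapped between groups.

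LDH knockout 3 decided several of these values. It was inside the control range, with both other knockouts beyond that range, for Lrp5, Fzd3, Fzd5, Fzd10, Wnt7b, Wnt10b and Notum, 7 of 36 members (19.4%) against 15.9% of all genes. Without this library, 5 members were called: Fzd10 (log2 fold change -2.32, edgeR adjusted p = 0.00241), Wnt7b (-1.53, adjusted p = 0.00177), Notum (-1.16, adjusted p = 0.0291), Tcf7 (-0.52, adjusted p = 0.0475) and Wnt5a (-0.50, adjusted p = 0.0297). Over all genes, the same omission raised the number called from 332 to 1068. The library had been set apart by this rule over all genes, so its omission favoured Fzd10, Wnt7b and Notum by construction. Of 16 alternatives, 2 called Fzd10, and 1 each called Wnt7b, Notum and Tcf7. The adjusted p among them reached 0.397, 0.521, 0.413 and 0.451 for these genes in turn.

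**Figure D2:**
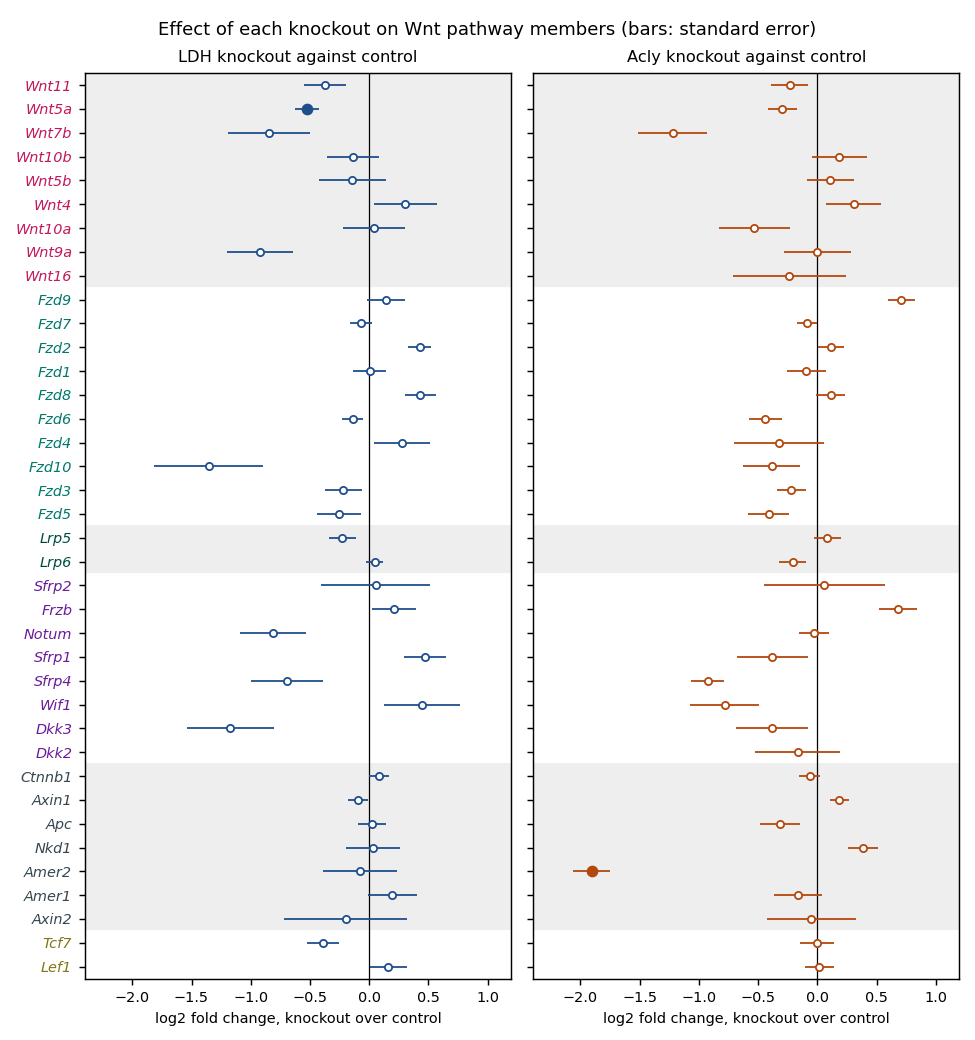
Log2 fold change of each tested member (knockout over control) with its standard error, for the LDH set on the left and the Acly set on the right; filled points have an edgeR adjusted p under 0.05 and genes are ordered by role as in the plot of levels. Only Wnt5a on the left (-0.52) and Amer2 on the right (-1.91) are filled.

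Loss of Acly was accompanied by a strong fall of Amer2, again the only member called. Amer2 encodes a membrane-associated protein that binds Apc and restrains beta-catenin signalling. It was at 4.50, 5.53 and 5.60 CPM in the knockouts and 20.6, 16.6 and 21.3 CPM in the controls. Every knockout was under 6 CPM and every control above 16 CPM, so that the knockout mean was 26.7% of the control mean (log2 fold change -1.91, SE 0.16, edgeR adjusted p = 0.00722). The call was lost in 2 of 16 alternatives, without Acly control 1 (adjusted p = 0.0754) and without Acly control 3 (adjusted p = 0.112), while the fold change stayed between -2.01 and -1.34. Only 0.136% of all genes tested were called in this comparison, and 1 of the 38 members. At an unadjusted p under 0.05, 4 members were higher and 7 lower, together 11 of 38, against 15.8% of all genes. Groups did not overlap for 11 of 38 members, 4 higher and 7 lower in the knockout, against 22.0% of all genes. The median log2 fold change was -0.13 for the members and -0.0018 for all genes. In the LDH set Amer2 was at 7.77, 8.65 and 6.36 CPM in the knockouts and 8.04, 4.13 and 11.9 CPM in the controls, inside the control range (edgeR adjusted p = 0.917).

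The relative of Amer2 on the X chromosome, Amer1, had a log2 fold change of -0.17 (SE 0.20, edgeR adjusted p = 0.682) in the Acly comparison. The inhibitors Nkd1 and Axin1, both of the canonical branch, were higher in every knockout than in every control. Nkd1, which binds Dishevelled, was at 29.1, 26.5 and 33.3 CPM against 25.9, 21.7 and 20.4 CPM (log2 fold change 0.39, SE 0.13, edgeR adjusted p = 0.259). Axin1 was at 86.4, 89.5 and 90.4 CPM against 78.4, 75.4 and 80.3 CPM (log2 fold change 0.19, SE 0.08, edgeR adjusted p = 0.310). Neither passed the threshold.

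Among ligands, Wnt7b and Wnt5a were lower in the Acly knockout without passing the threshold. Wnt7b was at 2.94, 6.32 and 3.36 CPM against 8.23, 9.05 and 12.1 CPM, without overlap (log2 fold change -1.22, SE 0.29, edgeR adjusted p = 0.192). Without Acly knockout 2 it was called (-1.63, edgeR adjusted p = 0.00611). Of 16 alternatives, 2 called Wnt7b, and its adjusted p among them reached 0.663. Wnt5a was at 41.8, 30.9 and 38.5 CPM against 42.4, 49.5 and 44.5 CPM, where the highest knockout lay just under the lowest control (log2 fold change -0.30, SE 0.12, edgeR adjusted p = 0.308). Its interaction term, the LDH effect minus the Acly effect, was -0.21 (SE 0.16, edgeR adjusted p = 0.575), so no difference between both knockouts was detected for Wnt5a. Summed ligand TPM ranged from 39.1 to 41.1 in the knockouts and from 46.8 to 52.5 in the controls.

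Frizzled receptors differed in direction. Fzd9 was at 71.0, 81.6 and 80.3 CPM in the Acly knockouts and 54.7, 45.0 and 42.6 CPM in the controls, well separated but outside the threshold (log2 fold change 0.71, SE 0.11, edgeR adjusted p = 0.0762). Without Acly knockout 2 it was called (0.68, edgeR adjusted p = 0.0208). Of 16 alternatives, 3 called Fzd9, and its adjusted p among them reached 0.404. Its share of Frizzled TPM was 33.8 ± 3.49% in the knockouts and 23.0 ± 2.20% in the controls, while the Frizzled total was 201 ± 24.3 and 191 ± 15.0 TPM. Fzd6, a receptor known for planar polarity, was at 14.2, 14.4 and 10.9 CPM against 17.7, 18.7 and 17.1 CPM (log2 fold change -0.44, SE 0.14, edgeR adjusted p = 0.250). Fzd5 was at 7.10, 5.09 and 6.01 CPM against 7.23, 8.76 and 8.24 CPM (log2 fold change -0.41, SE 0.17, edgeR adjusted p = 0.305). Both were lower in all knockouts than in any control. Lrp5 and Lrp6 overlapped between groups.

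Of the antagonists, Sfrp4 and Frzb were separated between groups in opposite directions. Sfrp4 was at 7.17, 6.71 and 6.98 CPM in the Acly knockouts and 11.7, 13.5 and 14.4 CPM in the controls (log2 fold change -0.93, SE 0.14, edgeR adjusted p = 0.0592). Without Acly knockout 2 it was called (-0.90, edgeR adjusted p = 0.0186). Frzb was at 24.8, 19.4 and 22.3 CPM against 12.6, 16.7 and 12.2 CPM (log2 fold change 0.68, SE 0.16, edgeR adjusted p = 0.180), and it too was called without that library (0.77, edgeR adjusted p = 0.0397). Of 16 alternatives, 4 called Sfrp4 and 2 called Frzb, with adjusted p among them up to 0.370 and 0.663. Wif1 had overlapping values of 6.54, 5.29 and 10.4 CPM against 8.61, 15.7 and 14.0 CPM (edgeR adjusted p = 0.274). DESeq2 called 5 members and 1.85% of all genes in this comparison. The members were Amer2, Fzd9 (adjusted p = 3.64e-05), Sfrp4 (3.45e-05), Wnt7b (0.00599) and Frzb (0.00928).

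Several of the most abundant members showed no separation in either knockout. Ctnnb1 was at 359, 391 and 382 CPM in the LDH knockouts against 376, 356 and 335 CPM, and at 504, 468 and 530 CPM in the Acly knockouts against 512, 526 and 534 CPM. Lrp5 was at 79.3, 68.5 and 89.7 against 84.7, 88.5 and 105 CPM in the LDH set and at 145, 174 and 189 against 172, 154 and 153 CPM in the Acly set. Lrp6 was at 140, 137 and 137 against 143, 131 and 126 CPM and at 136, 119 and 131 against 130, 168 and 147 CPM. In all 3 genes the groups overlapped in both sets. Fzd7 was at 72.0, 64.2 and 77.5 against 70.2, 81.3 and 73.1 CPM in the LDH set and at 76.7, 84.6 and 77.5 against 84.8, 85.5 and 82.9 CPM in the Acly set. Lef1 was at 7.22, 8.54 and 9.29 against 6.67, 6.99 and 8.71 CPM and at 13.3, 15.8 and 14.5 against 15.1, 14.6 and 13.4 CPM. These also overlapped, as did Sfrp2, at 0.581, 0.447 and 1.43 against 1.05, 0.706 and 0.601 CPM in the LDH set and at 23.9, 7.03 and 44.9 against 26.0, 29.2 and 17.4 CPM in the Acly set. For these 6 genes the edgeR adjusted p was between 0.311 and 0.966 in both comparisons.

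**Figure D3:**
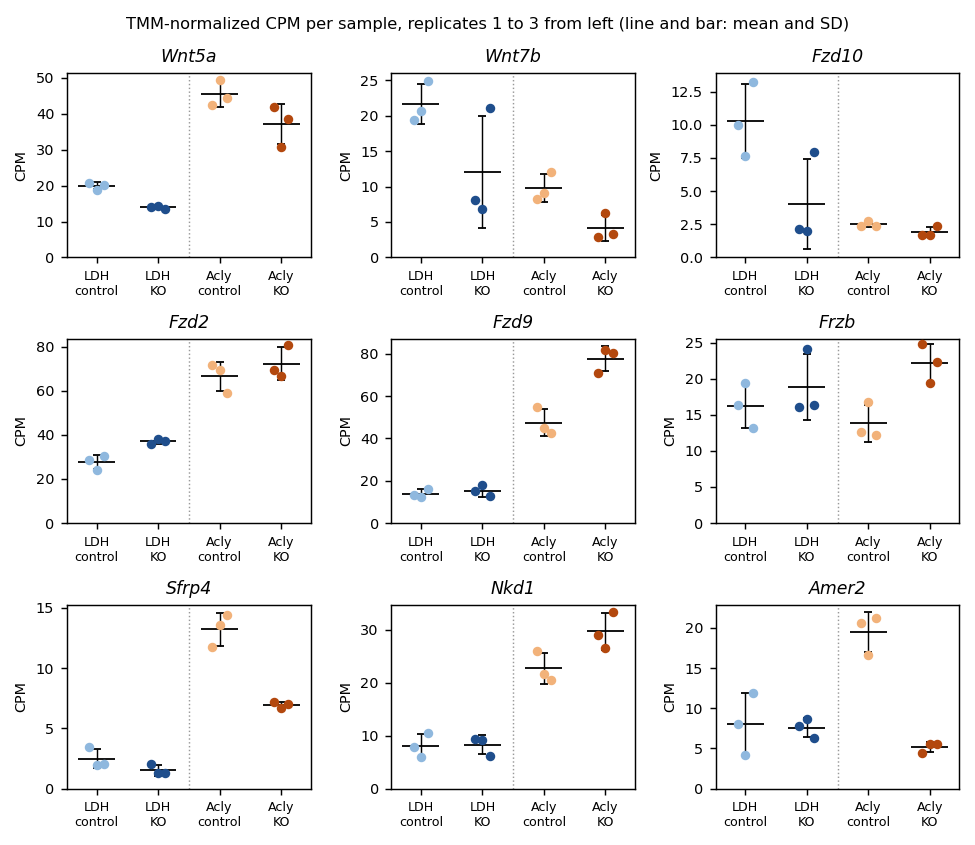
TMM-normalized CPM of 9 members in every sample, with points for replicates 1 to 3 from left to right, a line for the group mean and a bar for the SD; each set of 6 samples was scaled on its own and a dotted line divides the sets. Wnt7b and Fzd10 show LDH knockout 3 apart from the other knockouts, and Amer2 shows all Acly knockouts under 6 CPM and all controls above 16 CPM.

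Acly knockout 2 differed from its replicates for many members. It had the lowest value of the 6 samples for 18 of 38 members (47.4%) against 32.5% of all genes, Sfrp1, Sfrp2, Dkk3, Wif1, Fzd1, Fzd4 and Axin2 among them. For Sfrp2 it was at 7.03 CPM beside 23.9 and 44.9 CPM in the other knockouts, and for Fzd4 at 6.79 CPM beside 25.5 and 20.9 CPM. The low perichondrium and fibroblast markers of this library accompanied these values, and their part in them was not tested. Without Acly knockout 2, the called members were Amer2 (edgeR adjusted p = 0.000475) and, as given above, Wnt7b, Sfrp4, Fzd9 and Frzb, and calls over all genes rose from 19 to 132. Without Acly knockout 1, or without Acly knockout 3, Amer2 was the only member called.

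The effects of both deletions were compared in a fit of all 12 samples. The difference between them was called for 0 of 38 members by edgeR and for 0.161% of all genes, while 6 members (2 above 0 and 4 below) had an unadjusted p under 0.05, together 6 of 38 against 13.0% of all genes. DESeq2 called 1 member, Amer2, and 1.55% of all genes. The difference for Amer2, LDH effect minus Acly effect, was 1.85 (SE 0.39, edgeR adjusted p = 0.0946), and without LDH control 3 it was called (2.24, edgeR adjusted p = 0.0264). The other 5 were Wif1 at 1.24, Wnt9a at -0.91, Notum at -0.77, Fzd9 at -0.55 and Axin1 at -0.26. Wnt7b, lower on average in both knockouts, had a difference of 0.40 (SE 0.52, edgeR adjusted p = 0.749). Deleted gene, age and mouse line changed together between both sets and cannot be told apart. Y-linked sums were at most 0.0366 CPM in the LDH knockouts but 0.0743, 79.0 and 83.3 CPM in the Acly knockouts. Both control groups held low and high sums. The part of this signal in the differences was not tested.

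The control groups of both sets differed from each other in most members. Of the 38 members tested, 27 passed the threshold, 22 higher in the Acly controls at embryonic day E18.5 and 5 higher in the LDH controls at postnatal day 5. Over all genes 55.0% passed, 29.4% higher in the Acly controls and 25.7% higher in the LDH controls. The median difference was 0.75 on the log2 scale for the members and 0.017 for all genes. When libraries were scaled to their totals without TMM, the median of all genes moved to 0.19 and the share of all calls that were higher in the Acly controls moved from 53.3% to 72.4%, while 24 members were called higher and 4 lower. Age, line and any difference in preparation between both sets cannot be told apart.

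Among secreted antagonists, 7 of the 8 tested were higher in the Acly controls, and Frzb was not called (-0.39, edgeR adjusted p = 0.0993). Sfrp2 had the largest difference, with 24.8, 27.7 and 16.5 CPM in the Acly controls and 1.12, 0.749 and 0.632 CPM in the LDH controls (log2 difference 4.78, SE 0.62, edgeR adjusted p = 3.14e-05). Dkk3 followed at 6.29, 8.23 and 6.75 CPM against 1.08, 0.711 and 0.671 CPM (log2 difference 3.10, SE 0.33). No value of either gene overlapped between groups. Sfrp1 (2.95), Wif1 (2.90), Sfrp4 (2.25) and Notum (1.82) also passed the threshold, and Dkk2 had 17 to 34 counts in the Acly controls and 2 to 4 in the LDH controls. Summed antagonist TPM was 96.8 ± 15.2 in the Acly controls and 22.1 ± 2.70 in the LDH controls.

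Receptors differed in direction between both control groups. Fzd4 (log2 difference 2.30), Fzd1 (1.80), Fzd9 (1.63) and Fzd2 (1.12) were higher in the Acly controls, and Fzd6 (-0.97) and Fzd10 were higher in the LDH controls. Fzd10 was at 2.27, 2.61 and 2.27 CPM in the Acly controls against 10.6, 8.12 and 13.9 CPM (log2 difference -2.19, SE 0.43, edgeR adjusted p = 0.000853). Among ligands, Wnt7b was at 7.85, 8.58 and 11.5 CPM in the Acly controls against 20.6, 21.9 and 26.1 CPM (log2 difference -1.30, SE 0.36, edgeR adjusted p = 0.00817). Wnt5a lay the other way at 43.2 ± 3.33 against 21.2 ± 1.07 CPM (log2 difference 1.03, SE 0.11). Wnt11 was higher in the LDH controls (-0.46, edgeR adjusted p = 0.0417), a call lost in 7 of 15 alternatives. Wnt4 (0.83) and Wnt5b (0.72) were higher in the Acly controls, with the call lost in 2 and 4 of 15 alternatives. Wnt16 was also called higher in the Acly controls (log2 difference 2.91, SE 0.65, edgeR adjusted p = 0.00203). This value rests on few counts, 8 to 17 in the Acly controls and 1 to 2 in the LDH controls. The feedback inhibitors Axin2, Nkd1 and Notum, which canonical signalling induces, were higher in the Acly controls: Axin2 at 4.12, 4.90 and 3.80 against 0.671, 0.449 and 0.711 CPM (log2 difference 2.80, SE 0.49), Nkd1 at 24.7, 20.6 and 19.4 against 8.32, 6.33 and 11.0 CPM (1.34, SE 0.20), and Notum as above. Of the 11 other target genes tested from the pathway list, 4 were called higher and 4 lower in the Acly controls, with a median difference of 0.068. Amer1 (1.42), Amer2 (1.13) and Lrp5 (0.63) were also higher in the Acly controls, and Axin1 (-0.42) in the LDH controls. In the Acly controls Lef1 stood higher (0.79, SE 0.14), as did Ctnnb1 (0.40, SE 0.08), but Tcf7 was not called (0.23, edgeR adjusted p = 0.176).

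Markers of other cells moved with the same contrast. Scaled over all 12 samples, perichondrium and fibroblast markers summed to 2677 to 3050 CPM in the Acly controls and 882 to 1077 CPM in the LDH controls, with 9 of 12 called higher and 1 lower. Skeletal muscle markers summed to 304 to 408 against 22.2 to 40.5 CPM, with 10 of 10 called higher, and endothelial markers to 100 to 120 against 13.8 to 21.9 CPM, with 8 of 8 called higher. Adipocyte markers summed to 263 to 297 against 42.8 to 60.8 CPM, with 8 of 8 called higher, and red-cell markers to 91.0 to 132 against 29.5 to 44.8 CPM, with 4 of 5 called higher. Of osteoblast markers 6 of 9 were called higher, with sums of 7602 to 10427 against 6931 to 9369 CPM, which overlapped. Chondrocyte markers had 7 of 12 called higher and 1 lower, and leukocyte markers 4 of 7 higher and 2 lower. The part of these cells in the antagonist and receptor differences was not tested.

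**Figure D4:**
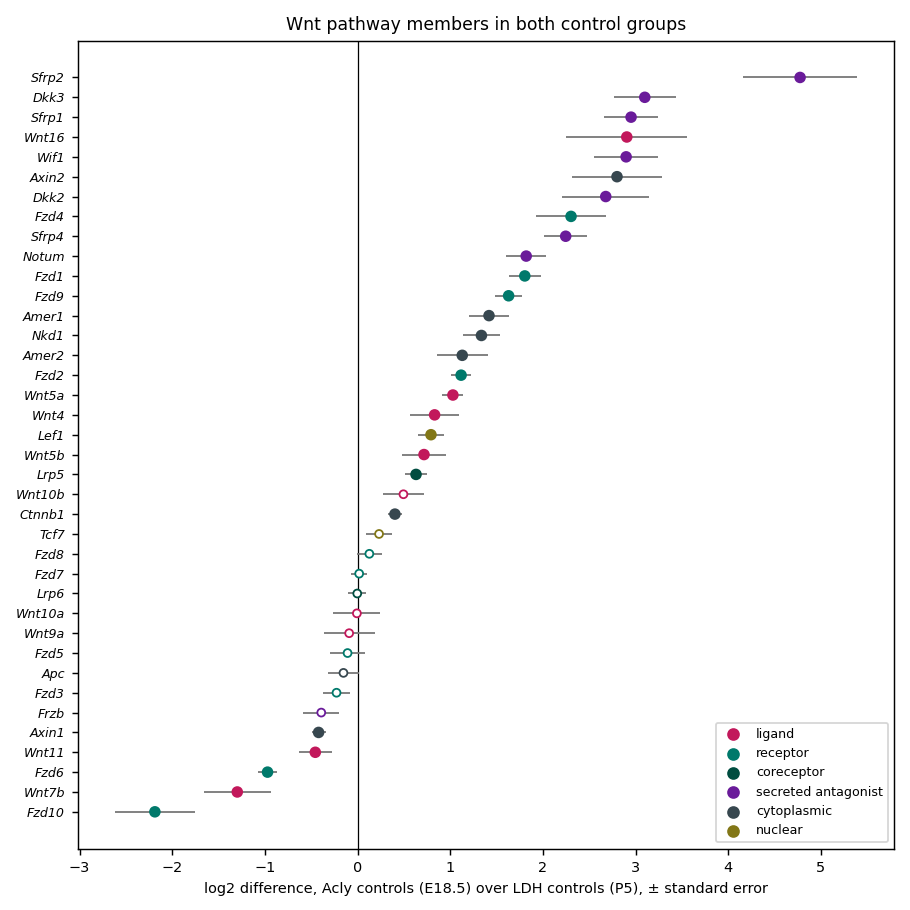
Log2 difference of the 38 tested members between the Acly controls (embryonic day E18.5) and the LDH controls (postnatal day 5), with standard errors; colours give the role and filled points have an edgeR adjusted p under 0.05. Secreted antagonists from Sfrp2 (4.78) to Notum (1.82) occupy most of the upper part, and Fzd10 (-2.19) and Wnt7b (-1.30) lie lowest.

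The rest of the pathway was read from a list of 78 other genes for ligand secretion, R-spondin receptors and turnover, further coreceptors, cytoplasmic and nuclear components, planar polarity and transcriptional targets. In the LDH knockout edgeR called 0 of 69 tested, with 9 higher and 7 lower at an unadjusted p under 0.05 (23.2% of the list, against 19.6% of all genes). For the same list limma on FPKM called 0 and DESeq2 called 5 (Cyr61, Fosl1, Fuz, Lgr4 and Tcf7l2), beside 6.80% of all genes. Tcf7l2, a relative of Tcf7, had the lowest adjusted p of those named here, at 25.7 ± 0.255 against 20.3 ± 0.928 CPM (log2 fold change 0.34, adjusted p = 0.0726). The R-spondin receptor Lgr4 was at 48.0 ± 3.14 against 37.4 ± 4.45 CPM (0.36, adjusted p = 0.0951), and the noncanonical receptor Ror1 at 1.17 ± 0.168 against 0.585 ± 0.0905 CPM (adjusted p = 0.109). In the Acly knockout edgeR called 0 of 72, with 5 higher and 6 lower at an unadjusted p under 0.05 (15.3%, against 15.8% of all genes). There limma on FPKM called 0 and DESeq2 called 2 (Cyr61 and Wls), beside 1.85% of all genes. Wls, which carries Wnts to the cell surface, was at 70.3 ± 19.4 against 110 ± 7.05 CPM (-0.65, adjusted p = 0.223). Cyr61, a matricellular gene induced by several pathways, was higher on average in both knockouts: 422 ± 71.7 against 305 ± 34.2 CPM for LDH (0.47, adjusted p = 0.0946) and 196 ± 29.4 against 129 ± 6.72 CPM for Acly (0.61, adjusted p = 0.114). Between the controls, 45 of 72 were called (62.5%, against 55.0% of all genes), 32 higher in the Acly controls and 13 lower, with a median difference of 0.20. Ror1 had the largest, at 10.3 ± 1.83 against 0.619 ± 0.0988 CPM (log2 difference 4.04), and the polarity gene Vangl2 (1.71) and the corepressor Tle2 (2.74) were also higher. Ccnd1, a cell cycle target, was lower in the Acly controls at 71.6 ± 5.96 against 254 ± 56.5 CPM (-1.83), as was Cyr61 (-1.40). These genes were chosen after their values were seen.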

How the data were processed

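RNA-seq was analysed in 12 samples in 4 groups of 3, assigned from the sample titles. Per the labels' protocols, mRNA was captured on oligo(dT) beads and fragmented, and libraries were made at BGI. HISAT2 2.0.4 and the build mm9 are named in the submitters' processing notes. The program used for counting, its annotation and its strand setting are not given in the sources used here, so genes that overlap or share reads with a close copy are uncertain. The authors deposited a table of 17922 genes with an expected count, an FPKM value (fragments per kilobase and 1000000 fragments) and a TPM value for each sample. Between 7.32% and 8.16% of a sample's deposited counts were not whole, so they were handled like estimated counts and rounded. The deposited TPM values were used for levels between genes and the FPKM values deposited by the authors only for an alternative. The table's 26 symbols turned into dates were restored from their identifiers, of which 17814 were found in RefSeq (GRCm38.p6). Wnt3a, Wnt9b, Dkk4 and Amer3 were not analysed here. No coordinates from the files' build are given, and promoter sequences come from RefSeq.

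Tests used edgeR 4.0.16 in R 4.3.3 (TMM scaling, filterByExpr, two-sided quasi-likelihood F test) with Benjamini-Hochberg adjustment over all tested genes and a threshold of 0.05. Each knockout was fitted with its own controls (6 samples), and the difference of effects and the comparison of controls in all 12 samples. The standard error was the log2 fold change divided by the square root of F. CPM was TMM-scaled within each set of 6, or over all 12 for the controls. The scripts were tested on simulated data. A count of 3, taken as the detection floor, equals about 0.11 CPM, and floors cover counting error only. Alternatives used DESeq2 1.42.0, limma 3.58.1, other scalings and filters, a replicate block, a Y-linked covariate and the omission of each library. Same-numbered samples did not deviate together, so the numbers were not treated as pairs. The members and gene lists were chosen with earlier results of these data known. Members were named with all values if called in a knockout test, if their groups did not overlap at an unadjusted p under 0.05 and a mean of at least 1 CPM, if among the 2 most abundant of their role, or if at either extreme of the comparison of controls. Others were chosen after their values were seen.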

Additional observations from a re-analysis of the deposited data

How the results depend on the processing

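For 52 results on single members, recomputation under alternatives gave 806 values. None changed direction, 761 kept their side of the threshold, 24 lost a call and 21 gained one. In the LDH comparison edgeR called 1 member and 332 genes, and DESeq2 called 3 members and 888 genes. No filter on low counts gave 2 members, and limma on FPKM gave 0 with either pseudocount. The Y-linked covariate, which nearly coincided with genotype in this set, left 0 members and 3 genes. Leaving out 1 library gave 0 to 5 members and 95 to 1068 genes, lowest without LDH control 3 and highest without LDH knockout 3. In the Acly comparison, with 1 member and 19 genes called, DESeq2 gave 5 and 249, no filter 3 and 32, limma on log2(FPKM + 0.1) 2 members, library totals without TMM 11 genes, the fit of all 12 samples 31 genes and the Y-linked covariate 6 genes. Leaving out 1 library gave 0 to 5 members and 0 to 132 genes, with 0 genes without Acly control 1 or 3 and 132 without Acly knockout 2. For the difference between effects, DESeq2 called 1 member and 217 genes, and leaving out 1 library gave 0 to 1 members and 5 to 143 genes. In the comparison of controls, with 27 members and 7844 genes called, the alternatives called 25 to 28 members and 6705 to 8361 genes, and Wnt11, Wnt4 and Wnt5b lost their calls in some of them. The causes were not tested.

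With the replicate number as a block, the calls were 362 genes for LDH, 8 for Acly and 5 for the difference between effects. In the LDH set the replicate block called Fzd10 (adjusted p = 0.0224) in place of Wnt5a (adjusted p = 0.0562), and in the Acly set it kept Amer2 (adjusted p = 0.0321). Same-numbered samples correlated in their deviations by at most 0.0491 and at least -0.222. Deviations from means of 3 samples cannot show whether same-numbered samples shared a litter or handling. Groups of 3 limit the precision, the 11 members that never exceeded 15 counts were not tested, and values such as those of Dkk3 and Axin2 in the LDH knockouts or Wnt16 in the Acly set were tested on few counts.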
